A study of Mus musculus with 6 samples.

Results

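Inhibitory immune checkpoints outside the PD-1 axis, encoded by 10 genes, were followed in subcutaneous H22 tumours of control and luteolin-treated mice. They were chosen by gene symbol, with earlier results of these data known, and all 10 were found among the 21720 genes of the deposited table. H22 is a mouse hepatocellular carcinoma line, grown here under the skin of female BALB/c mice of WT genotype that were 6 to 8 weeks old. Mice were gavaged with 0.2 ml once a day for 21 days, starting when tumours measured some 50 mm3. The control group received 0.5% carboxymethyl cellulose sodium and the luteolin group 200 mg/kg luteolin, a plant flavonoid. Each group gave 3 RNA-seq libraries of whole tumour, which hold tumour cells, stroma and infiltrating leukocytes together. The labels do not say that each library came from a separate mouse, so p values measure the spread between these samples, which may be technical.

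Inhibitory checkpoints are receptors that lower the response of T cells and natural killer (NK) cells when they meet a ligand on a tumour cell, a myeloid cell or another lymphocyte. Many of them are switched on by activation of the same cell, and persistently stimulated T cells in tumours can carry several together. They therefore mark lymphocytes that have been activated as well as lymphocytes that are restrained. Ctla4 competes with the costimulatory receptor Cd28 for the B7 ligands. Lag3 binds MHC class II, and Havcr2 (TIM-3) is carried by T cells, NK cells, macrophages and dendritic cells and has Lgals9 (galectin-9) among its ligands. Tigit and Cd96 compete with costimulatory Cd226 for nectins and the poliovirus receptor, Btla and Cd160 bind Tnfrsf14 (HVEM), Cd244a (2B4) binds Cd48, and Vsir (VISTA) is abundant on myeloid cells and on resting T cells.

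The promoters of 3 members are shown because these members took contrasting courses after luteolin, with Havcr2 and Ctla4 higher in every treated library and Tigit at a like level in both groups. Each runs 5′ to 3′ on the strand of the gene, from 250 bases before to 50 bases after the RefSeq start site on GRCm38.p6. Havcr2 is at chr11:46454681-46454980 on the plus strand, Ctla4 at chr1:60908775-60909074 on the plus strand and Tigit at chr16:43664135-43664434 on the minus strand. Capitals mark matches on either strand to any of 7 short motifs of factors active in stimulated lymphocytes.
Havcr2: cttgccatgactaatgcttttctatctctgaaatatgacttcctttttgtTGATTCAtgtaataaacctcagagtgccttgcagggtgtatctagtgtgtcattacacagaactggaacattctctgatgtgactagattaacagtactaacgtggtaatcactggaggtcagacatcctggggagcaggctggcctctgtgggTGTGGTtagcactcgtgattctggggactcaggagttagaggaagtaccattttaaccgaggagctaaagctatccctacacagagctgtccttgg
Ctla4: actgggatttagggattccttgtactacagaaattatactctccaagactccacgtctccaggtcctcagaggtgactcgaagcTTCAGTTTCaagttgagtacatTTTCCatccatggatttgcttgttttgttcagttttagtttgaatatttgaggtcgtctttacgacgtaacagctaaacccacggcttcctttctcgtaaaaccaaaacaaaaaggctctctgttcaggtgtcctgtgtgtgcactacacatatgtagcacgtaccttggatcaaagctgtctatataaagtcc
Tigit: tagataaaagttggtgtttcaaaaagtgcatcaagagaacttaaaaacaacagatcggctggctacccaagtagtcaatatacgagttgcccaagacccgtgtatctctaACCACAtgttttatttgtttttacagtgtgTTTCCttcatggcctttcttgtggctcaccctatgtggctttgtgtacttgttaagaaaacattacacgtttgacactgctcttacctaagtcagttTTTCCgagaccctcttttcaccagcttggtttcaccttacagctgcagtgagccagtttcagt
The capitals in Havcr2 are an AP-1 match (TGANTCA) and a RUNX match (TGTGGT). In Ctla4 they are an IRF match (GAAANNGAA) and an NFAT core (GGAAA), and in Tigit a RUNX match and 2 NFAT cores. Of the 9 members with a promoter in the RefSeq table, 6 held an NFAT core and 6 a RUNX match, against 61.3% and 16.8% of all 32851 promoters of this length. An IRF match was found in 4 members, an AP-1 match in 2, a GAS match (TTCNNNGAA) in 2 and a T-box match (GGTGTGA) in 1, against 8.56%, 7.81%, 8.3% and 3.98% of all promoters. No member held a CRE match (TGACGTCA), which 1.79% of promoters hold. Cd160 has 2 promoters in the table and was counted if either matched, and neighbouring matches can share letters. The lone match to the T-box motif was in the second promoter of Cd160. A match describes letters only. The promoter of Vsir, by contrast, held none of the 7 motifs. Lag3 has no entry in that table.

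Of the 10 members, 6 rose after luteolin by the criterion of the study, a fold change over 2 at p under 0.05 without adjustment, called the study's threshold here. These were Ctla4, Lag3, Havcr2, Vsir, Cd96 and Cd244a. No member fell, and by edgeR, DESeq2 and voom 0 members were lower even at an unadjusted p under 0.05 alone. In the edgeR quasi-likelihood test, 6 of 10 members higher compares with 11.3% of the 14963 genes tested, and 0 of 10 lower with 1.52%. The same 6 members lay above every control library in all 3 luteolin libraries, as did 15.9% of tested genes, and 0 members lay below every control library, as did 12.8%. The median log2 fold change was 1.47 over the members and -0.0073 over all tested genes. After Benjamini-Hochberg adjustment over all tested genes only Havcr2 passed 0.05 with edgeR, 1 of 10 members against 1.52% of genes. In bulk tumour RNA, fewer cells of a type and less RNA per cell cannot be told apart, so each difference below is one of transcript level in the whole tumour.

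The summed level of the 10 members was 124 to 144 CPM in the controls and 183 to 278 CPM in the luteolin group, where CPM is the count scaled to the TMM-normalized library total (TMM corrects for differences in library composition). Library totals ran from 61081637 to 80442954 counts, so that 1 count was worth 0.012 to 0.0163 CPM, and all 10 members were detected in all 6 libraries. The largest library was luteolin replicate 2, which was also the highest luteolin library for 8 of the 10 members (all but Havcr2 and Cd96). Keratinocyte transcripts were found in all 3 luteolin libraries and were most abundant in that one. Krt14, a keratin of basal epidermis, was at 157, 2439 and 4.33 CPM in luteolin replicates 1, 2 and 3, and Krt5, Krt14, Krt1, Dsg3 and Krtdap were all at 0 in every control. The sum over the keratinocyte list was 585, 10352 and 162 CPM in the luteolin libraries and 191 to 202 CPM in the controls, and in the controls and luteolin replicate 3 most of it was Dsp, a desmosome gene of epithelia at 142 to 186 CPM there. The part of these transcripts in the results was not tested. Among liver markers, Afp was at 43.4 to 66.7 CPM in the controls and lay below them in every luteolin library, at 32.7 to 41.8 CPM (log2 fold change -0.58 ± 0.21, under the fold limit, edgeR adjusted p = 0.187). Gpc3 went the other way, at 0.633 to 1.30 CPM in the controls and 3.13 to 9.34 CPM with luteolin (log2 fold change 2.73 ± 0.55, edgeR adjusted p = 0.0665). Of 7 tested liver markers, 1 (Gpc3) was higher at the study's threshold and 0 lower, against 11.3% and 1.52% of all tested genes. Krt18, the most abundant, overlapped between the groups (log2 fold change -0.22, edgeR adjusted p = 0.454). Over the 6 libraries Alb ran from 0.868 to 133 CPM and Hnf4a was at or near 0, from 0 to 0.327 CPM. Luteolin replicate 3, the luteolin library with the least keratinocyte transcript, was also set alone against the controls. This comparison was added after the data had been seen, and the lone library is assumed in it to vary like the controls. The log2 fold changes were 1.75 for Ctla4, 1.65 for Lag3, 2.20 for Havcr2, 2.83 for Cd96 and 1.03 for Cd160. They were 0.71 for Vsir, 0.70 for Cd244a, 0.62 for Btla, -0.19 for Tigit and -0.16 for Lgals9.

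**Figure D1:**
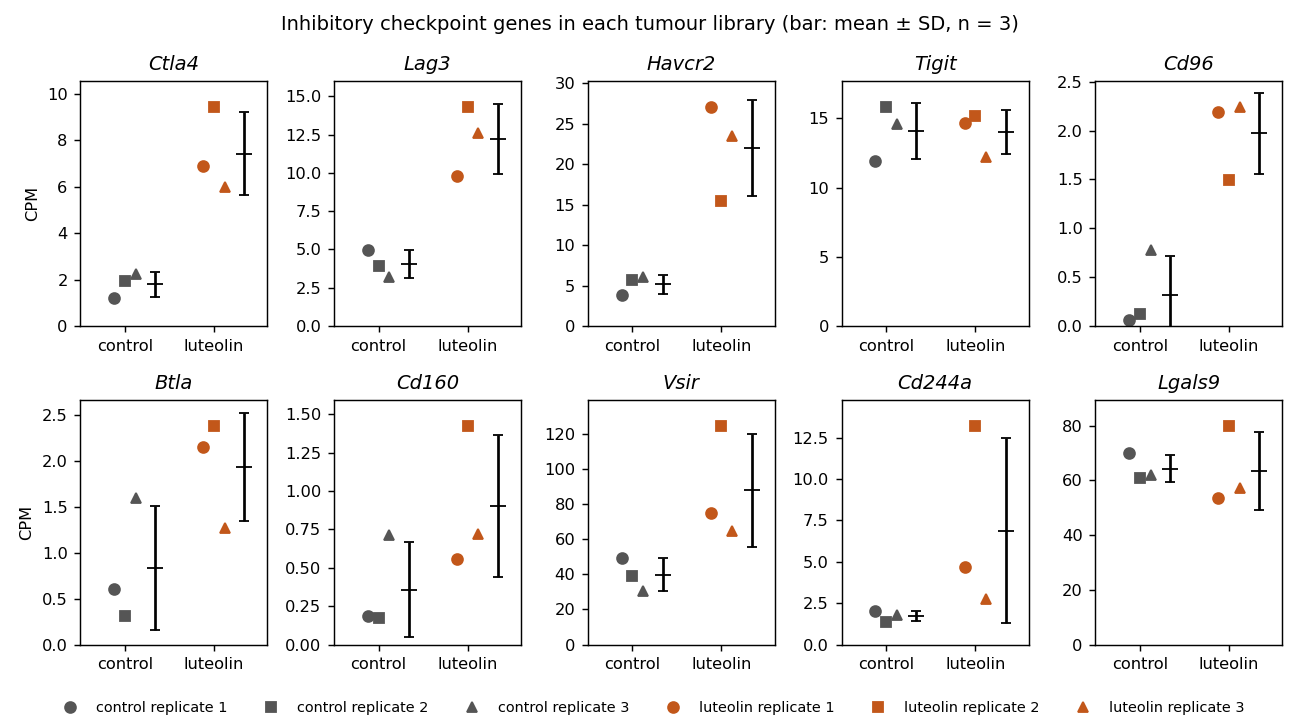
CPM of each member (vertical axes, linear, each with its own range) in the 3 control and the 3 luteolin libraries, with mean ± SD beside the points and the control SD bar of Cd96 cut at 0. Every luteolin point lies above every control point for Ctla4, Lag3, Havcr2, Cd96, Vsir and Cd244a, and the points of the groups overlap for Tigit, Btla, Cd160 and Lgals9.

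Havcr2, the TIM-3 receptor, was at 3.79, 5.64 and 6.001 CPM in control replicates 1, 2 and 3 and at 27.0, 15.4 and 23.4 CPM in luteolin replicates 1, 2 and 3. The groups were far apart, and the lowest luteolin library was well above the highest control. The mean rose from 5.14 ± 1.18 to 22.0 ± 5.91 CPM (SD, n = 3 per group), a log2 fold change of 2.09 ± 0.32 (SE; edgeR adjusted p = 0.0393). In contrast to most members, its highest library was luteolin replicate 1 and its lowest luteolin library replicate 2, the library with the most keratinocyte transcript. The log2 fold change stayed between 1.90 and 2.31 over all 16 alternative settings, whereas the adjusted p depended on the library set. With edgeR it was 0.0219 without luteolin replicate 2 and 0.0638 to 0.217 when any of the other libraries was left out.

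Lgals9, the galectin ligand of TIM-3, was at 69.9, 60.8 and 62.1 CPM in the controls and at 53.5, 79.9 and 57.0 CPM in the luteolin libraries. The groups overlapped, with luteolin libraries at both ends of the range. The means were 64.3 ± 4.93 and 63.5 ± 14.4 CPM (SD, n = 3 per group), a log2 fold change of -0.02 ± 0.19 (edgeR adjusted p = 0.976), and the 95% interval of the fold ran from 0.719 to 1.36. Of 2 further TIM-3 ligands, Hmgb1, a chromatin protein released by dying cells, stood at 451 to 574 CPM in the controls and 371 to 527 CPM with luteolin (log2 fold change -0.16, edgeR adjusted p = 0.677). Ceacam1, an adhesion molecule, had a log2 fold change of 0.13 (edgeR adjusted p = 0.884). None of these ligands passed the study's threshold. Bag6, an adaptor bound to the TIM-3 tail, had a log2 fold change of -0.11 (edgeR adjusted p = 0.795).

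Ctla4, the B7-binding receptor of activated and regulatory T cells, was at 1.20, 1.95 and 2.23 CPM in the controls and at 6.87, 9.42 and 5.98 CPM with luteolin. All 3 luteolin libraries exceeded all controls by a wide margin. The mean rose from 1.79 ± 0.532 to 7.42 ± 1.79 CPM (SD, n = 3 per group), a log2 fold change of 2.05 ± 0.39 (SE; edgeR adjusted p = 0.0598). Its costimulatory counterpart Cd28 stood at 0.172, 0.232 and 0.992 CPM in the controls and at 1.502, 1.08 and 2.96 CPM with luteolin, higher at the study's threshold with a log2 fold change of 1.98 ± 0.83 (edgeR adjusted p = 0.24). Neither of their shared ligands passed the threshold. Cd86 was at 3.73, 7.40 and 8.11 CPM in the controls and 11.5, 13.8 and 10.9 CPM with luteolin, without overlap, but its log2 fold change of 0.91 ± 0.35 was under the fold limit (edgeR adjusted p = 0.207). Cd80 overlapped between the groups, at 1.36 to 4.42 CPM against 2.24 to 6.66 CPM (log2 fold change 0.70, edgeR adjusted p = 0.578).

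Lag3, which resembles CD4 and binds MHC class II, was at 4.99, 3.94 and 3.18 CPM in the controls and at 9.80, 14.3 and 12.6 CPM with luteolin. Again no luteolin library came near a control. The mean went from 4.04 ± 0.912 to 12.2 ± 2.26 CPM (SD, n = 3 per group), a log2 fold change of 1.597 ± 0.30 (SE; edgeR adjusted p = 0.0595). For its other proposed ligands, galectin-3 (Lgals3) stood at 164 to 220 CPM in the controls and 284 to 393 CPM with luteolin without overlap, with a log2 fold change of 0.78 ± 0.19 that was under the fold limit (edgeR adjusted p = 0.0969). The hepatocyte-secreted ligand Fgl1 was at 0 in 2 control libraries and at 0.432 CPM in the other, against 0.125 to 0.522 CPM with luteolin (edgeR adjusted p = 0.749). The lectin Clec4g was at 0 in every control and at most at 0.131 CPM with luteolin, too low to be tested.

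Tigit, the nectin-binding receptor of T cells and NK cells, was at 11.9, 15.8 and 14.6 CPM in the controls and at 14.7, 15.2 and 12.2 CPM with luteolin. The libraries of the groups were interleaved. The means were 14.1 ± 1.999 and 14.04 ± 1.59 CPM (SD, n = 3 per group), with a log2 fold change of -0.0046 ± 0.22 (edgeR adjusted p = 0.995) and a 95% interval of the fold from 0.693 to 1.43. In RefSeq the Tigit locus overlaps Zbtb20, a transcription factor gene on the opposite strand, whereas GENCODE M21 shows no overlap. Zbtb20 was itself abundant, at 4.09, 36.1 and 44.0 CPM in the controls and 31.6, 22.3 and 31.4 CPM with luteolin. The sources used here do not say whether reads were counted by strand, so reads of Zbtb20 may have been counted for Tigit. Whether they were was not tested, and the Tigit values are uncertain on that account. The Tigit level was also high beside T cell transcripts in the controls. There the 12 T cell markers described below summed to 17.7 to 21.6 CPM, and the highest control mean among them was 3.68 CPM, that of Cd4. With luteolin these markers summed to 67.0 to 125 CPM, while Tigit stayed at a like level. The part of T cells and NK cells in the Tigit level was not tested.

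Cd96, which shares the poliovirus receptor as a ligand with Tigit, was at 0.0572, 0.124 and 0.775 CPM in the controls and at 2.19, 1.496 and 2.24 CPM with luteolin. These control values are 4, 8 and 50 counts, so control replicate 3 stood apart from the other controls although still below every luteolin library. The mean went from 0.319 ± 0.397 to 1.97 ± 0.414 CPM (SD, n = 3 per group), a log2 fold change of 2.63 ± 0.97 (SE; edgeR adjusted p = 0.196). Its 95% interval, from 0.33 to 4.92 on the log2 scale, was the widest of the 10 members. Without control replicate 3 the log2 fold change was 4.42 (edgeR adjusted p = 0.149), while without control replicate 1, control replicate 2, luteolin replicate 1 or luteolin replicate 3 it lay between 2.12 and 2.54 and its unadjusted edgeR p was over 0.05.

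Cd226, the activating competitor of Tigit and Cd96, was low but higher in every luteolin library, at 0.501, 0.463 and 0.450 CPM in the controls and 0.865, 1.34 and 1.64 CPM with luteolin (log2 fold change 1.44 ± 0.50, edgeR adjusted p = 0.179). Of the shared ligands, Pvr stood at 79.3, 91.8 and 85.4 CPM in the controls and 135, 85.1 and 125 CPM with luteolin and did not pass the threshold (edgeR adjusted p = 0.289). Nectin1, an adhesion molecule of epithelia, passed it with a log2 fold change of 2.49 ± 0.89 (edgeR adjusted p = 0.187), on values of 4.54 to 8.44 CPM in the controls and 11.8, 82.9 and 8.36 CPM with luteolin. The high value was that of luteolin replicate 2, the keratinocyte-rich library, and luteolin replicate 3 lay within the control range. Nectin2 and Nectin3 had log2 fold changes of 0.63 and 0.88, neither past the threshold (edgeR adjusted p = 0.341 and 0.278). Pvrig, a receptor and not one of these ligands, had a log2 fold change of 0.51 and did not pass either (edgeR adjusted p = 0.778).

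Btla, an HVEM receptor of B cells, T cells and dendritic cells, was at 0.601, 0.309 and 1.597 CPM in the controls and at 2.16, 2.38 and 1.27 CPM with luteolin. Control replicate 3 exceeded luteolin replicate 3, so the groups overlapped. The means were 0.836 ± 0.675 and 1.93 ± 0.589 CPM (SD, n = 3 per group), with a log2 fold change of 1.21 ± 0.69 (edgeR adjusted p = 0.382). Cd160, the HVEM receptor of NK cells and cytotoxic T cells, was at 0.186, 0.17 and 0.713 CPM in the controls and 0.555, 1.42 and 0.72 CPM with luteolin. Here too control replicate 3 overlapped the luteolin libraries, and the log2 fold change of 1.34 ± 0.79 did not pass the threshold (edgeR adjusted p = 0.3998). Without control replicate 3 both passed it, Btla with a log2 fold change of 2.08 (edgeR adjusted p = 0.249) and Cd160 with 2.32 (edgeR adjusted p = 0.273). Cd160 shares 68 exon bases with Pdzk1 on the opposite strand, which was at 0 to 0.946 CPM, so a part of its few reads cannot be assigned with certainty.

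The HVEM gene itself, Tnfrsf14, was higher in every luteolin library, at 5.19, 5.16 and 6.30 CPM in the controls and 12.7, 28.4 and 12.2 CPM with luteolin (log2 fold change 1.68 ± 0.39, edgeR adjusted p = 0.0861). Its activating ligand Tnfsf14 (LIGHT) rose from 0.930 to 1.59 CPM over the controls to 2.93 to 6.31 CPM (log2 fold change 1.71 ± 0.46, edgeR adjusted p = 0.114). With edgeR and all libraries both genes passed the study's threshold and neither Btla nor Cd160 did, but the difference between these genes was not itself tested. With voom Btla and Cd160 passed it too (log2 fold changes 2.24 and 1.57).

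Vsir, the VISTA gene, was at 49.5, 38.8 and 30.7 CPM in the controls and 74.8, 125 and 64.5 CPM with luteolin. The groups did not overlap, and luteolin replicate 2 stood above the other treated libraries. The mean rose from 39.7 ± 9.45 to 88.0 ± 32.2 CPM (SD, n = 3 per group), a log2 fold change of 1.15 ± 0.30 (SE; edgeR adjusted p = 0.109). This value was close to the fold limit, and it was 0.83 without luteolin replicate 2, 0.99 without control replicate 3 and 0.71 for luteolin replicate 3 alone. Selplg, the selectin ligand of leukocytes that can bind VISTA, rose at the study's threshold from 6.32 to 7.63 CPM in the controls to 18.7, 35.5 and 17.7 CPM (log2 fold change 1.76 ± 0.33, edgeR adjusted p = 0.0552). The other ligand, Igsf11, was at 0 in 5 of the 6 libraries. Vsir lies within Cdh23, on the opposite strand without shared exon bases, and Cdh23 was at 4.37 to 6.15 CPM over all libraries.

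Cd244a, the 2B4 receptor of NK cells and cytotoxic T cells, was at 2.03, 1.37 and 1.77 CPM in the controls and at 4.69, 13.2 and 2.77 CPM with luteolin. The treated libraries were widely spread, with luteolin replicate 2 far above the others. The mean went from 1.72 ± 0.331 to 6.89 ± 5.57 CPM (SD, n = 3 per group), a log2 fold change of 1.998 ± 0.62 (SE; edgeR adjusted p = 0.150). It was 1.13 without luteolin replicate 2 and 0.70 for luteolin replicate 3 alone, where it no longer passed the threshold (edgeR adjusted p = 0.83). Without control replicate 2 it was 1.81 and also missed the threshold, with an unadjusted edgeR p just over 0.05. In GENCODE M21 Cd244a overlaps Ly9, on the opposite strand without shared exon bases. Ly9 was at 6.77, 8.99 and 13.4 CPM in the controls and at 13.1, 21.0 and 19.4 CPM with luteolin (log2 fold change 0.88 ± 0.33, edgeR adjusted p = 0.201). Whether reads of Ly9 entered the Cd244a counts was not tested, and the strand setting is not known. Cd48, the 2B4 ligand on leukocytes, was at 0.429, 10.2 and 13.8 CPM in the controls and at 20.1, 15.2 and 21.2 CPM with luteolin, without overlap but with 1 control library far below the rest, and it did not pass the threshold (log2 fold change 1.21 ± 0.96, edgeR adjusted p = 0.54).

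**Figure D2:**
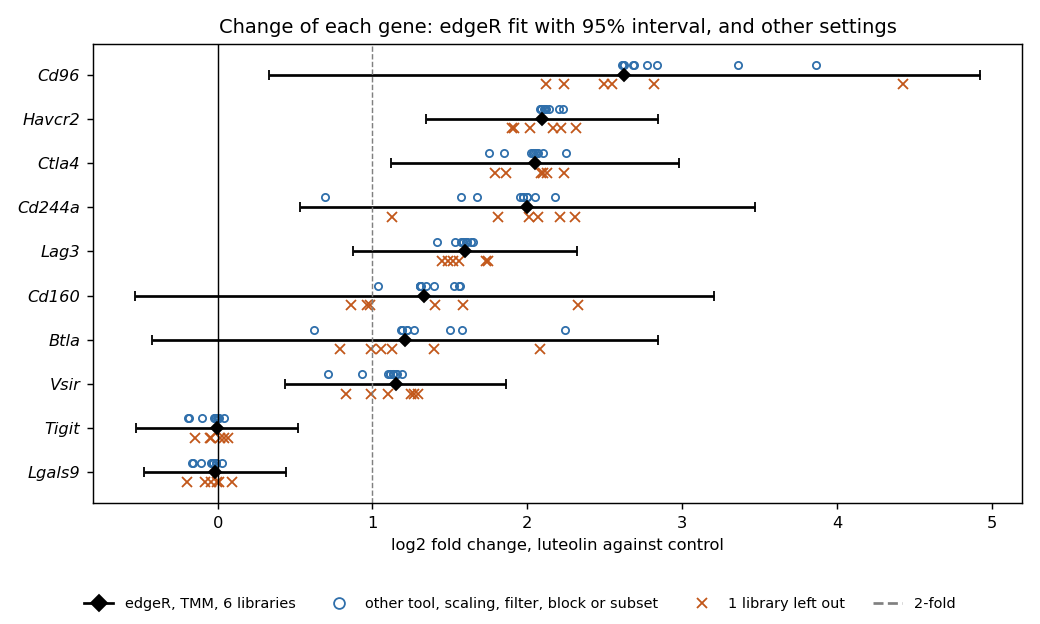
log2 fold change of luteolin against control (horizontal axis) for each member, with the edgeR estimate and its 95% interval (black), other tools, scalings, filters, the replicate block or luteolin replicate 3 alone (blue circles) and fits with 1 library left out (orange crosses). Ctla4, Lag3 and Havcr2 stay right of the dashed 2-fold line under every setting, Vsir sits close to it, Tigit and Lgals9 stay around 0, and Cd96, Btla, Cd244a and Cd160 spread most.

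Over the whole list of ligands and costimulatory counterparts, which also holds the receptor Pvrig, 17 of 19 genes were high enough to be tested. Of these, 6 passed the study's threshold upwards (Cd28, Cd226, Nectin1, Selplg, Tnfrsf14 and Tnfsf14), against 11.3% of all tested genes. Downwards 0 passed, against 1.52%. The adjusted p was passed by 0 of 17 with edgeR, 5 of 19 with DESeq2 and 9 of 17 with voom. Over the whole table it was passed by 228 of 14963, 1958 of 17478 and 3197 of 14963 tested genes. At an unadjusted p under 0.05 with edgeR, 8 of the 17 were higher and 0 lower. That p was reached in either direction by 3061 of all 14963 tested genes. For the 17 listed genes the log2 fold change had a median of 0.91. Among these were the costimulatory receptors Cd28, whose ligands Ctla4 shares, and Cd226, whose ligands Cd96 and Tigit share. Of these inhibitory receptors Ctla4 and Cd96 passed the threshold and Tigit did not. The most abundant ligands, Hmgb1, Lgals3, Pvr and Lgals9, did not pass the threshold.

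**Figure D3:**
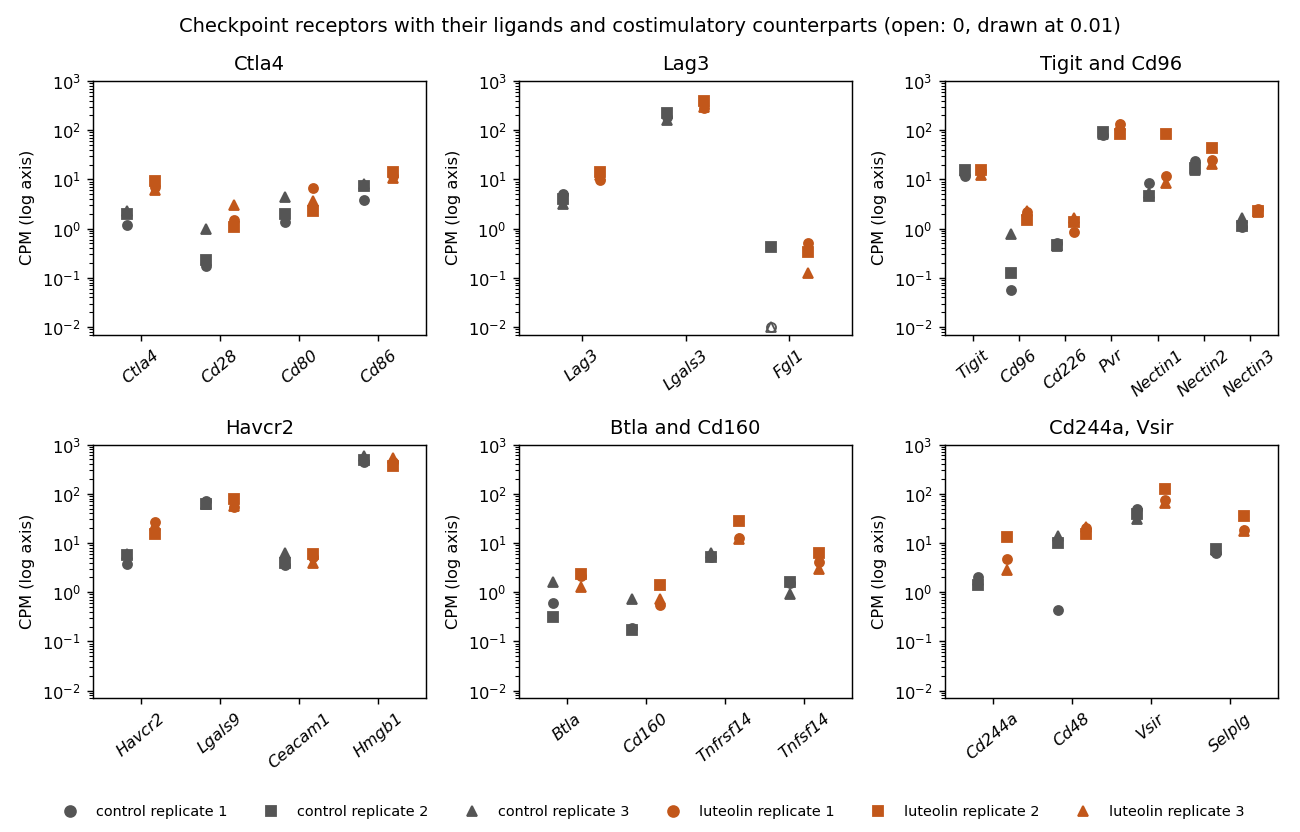
CPM (vertical axes, log scale) of each receptor and its ligands or counterparts, by library, with a value of 0 drawn as an open symbol at 0.01. Cd28, Cd226, Tnfrsf14, Tnfsf14 and Selplg lie higher in all luteolin libraries, Nectin1 is raised mainly in luteolin replicate 2, and Lgals9, Hmgb1 and Ceacam1 overlap between the groups.

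Inside the cell, these receptors act through phosphatases and adaptors that bind their cytoplasmic tails. Of 10 such genes, 2 passed the study's threshold upwards, against 11.3% of all tested genes. Both also passed the adjusted p with edgeR, as did 1.52% of all tested genes. Fyn, a Src-family kinase of lymphocyte signalling, had a log2 fold change of 1.51 ± 0.23 (edgeR adjusted p = 0.0403), and Inpp5d, the lipid phosphatase SHIP1, one of 1.19 ± 0.19 (edgeR adjusted p = 0.0437). Ptpn6, the phosphatase SHP-1, and the ubiquitin ligase Cblb were under the fold limit, at 0.71 and 0.66 on the log2 scale (edgeR adjusted p = 0.208 and 0.0683).

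Of 20 other inhibitory receptors and ligands, 8 were higher at the study's threshold and 0 lower, against 11.3% and 1.52% of all tested genes, and 12 did not pass. The adjusted p with edgeR was passed by 2, against 1.52% of all tested genes. Those 2 were the myeloid receptors Cd300lf, with a log2 fold change of 1.80 ± 0.16 (edgeR adjusted p = 0.0292), and Sirpa, the receptor for Cd47, with 1.11 ± 0.14 (edgeR adjusted p = 0.0331). Cd200, a ligand that restrains myeloid cells, and Lilrb4a, an inhibitory myeloid receptor, rose at the study's threshold by 1.96 and 1.53 on the log2 scale (edgeR adjusted p = 0.0587 and 0.0747). Of 19 tested regulators of T cell activation and exhaustion, 10 were higher at the study's threshold and 0 lower, against 11.3% and 1.52% of all tested genes. Id2 and Prdm1, transcription factors of effector lymphocytes, passed the adjusted p with edgeR (log2 fold changes 1.68 ± 0.22 and 1.76 ± 0.29, adjusted p = 0.0331 and 0.0437), and the activation-induced receptor Nr4a3 rose by 2.17 ± 0.46 (edgeR adjusted p = 0.0742). Entpd1, the ectoenzyme CD39, was under the fold limit at 0.92 (edgeR adjusted p = 0.0661).

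Markers of leukocytes and of other cells were counted in the same way. Of all tested genes, 11.3% were higher at the study's threshold, 1.52% passed the adjusted p with edgeR and 15.9% lay above every control. All 12 tested T cell markers were higher at the study's threshold, 3 of them also by adjusted p with edgeR, and all 12 lay above every control. Their summed level was 17.7 to 21.6 CPM in the controls and 67.0 to 125 CPM with luteolin. All 7 regulatory T cell markers were higher as well (9.90 to 12.9 CPM in sum against 25.8 to 65.0), as were all 7 tested NK cell markers (6.05 to 12.1 against 39.2 to 78.0), although Klrd1 was at 0 in every control and Klra8 at 0 in every library. Of the 11 macrophage markers, 2 were higher (1098 to 1298 CPM in sum against 1770 to 2500), and of the 6 tested B cell markers also 2 (11.7 to 13.6 against 14.3 to 43.2). Dendritic cell markers were higher in 7 of 9, with sums of 124 to 136 against 194 to 290 CPM. Ptprc, the pan-leukocyte gene, had a log2 fold change of 1.16 (edgeR adjusted p = 0.0638). Neutrophil, mast cell, fibroblast and endothelial markers were higher in 4 of 6, 6 of 7, 5 of 7 and 2 of 6. The part of these cells in the change of each member was not tested.

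To set the members beside the lymphocyte transcripts, the mean log2 CPM of the 12 T cell markers was subtracted from the log2 CPM of each member in every library. The mean of the T cell list itself was 0.47 in the controls and 2.69 with luteolin, a difference of 2.22. On this relative scale Ctla4 was at -0.09, 0.29 and 0.85 in the controls and at 0.47, 0.02 and 0.07 with luteolin, and the groups overlapped (difference -0.17, exact two-sided permutation p = 0.7). Havcr2 overlapped as well, with a difference of -0.14 (exact permutation p = 0.9). With 3 libraries per group these values do not show that the levels of Ctla4 and Havcr2 beside the T cell markers were alike, and Havcr2 ran from 0.73 to 2.44 within the luteolin group.

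Lag3 lay lower against the T cell markers in all 3 luteolin libraries, at 1.94, 1.29 and 1.36 in the controls and 0.98, 0.62 and 1.14 with luteolin, a difference of -0.62. Vsir, Tigit and Lgals9 were below every control on this scale too, with differences of -1.10, -2.22 and -2.26. The levels of Tigit and Lgals9 themselves had log2 fold changes of -0.0046 and -0.02, so their differences on this scale restate the rise of the T cell list. For Lag3, Vsir, Tigit and Lgals9 the exact permutation p was 0.1, the smallest that 3 libraries against 3 allow, so the design cannot reach 0.05, and it was 0.25 after adjustment over the 10 members. Cd96 was the only member with a positive difference, 0.95, but its groups overlapped (exact permutation p = 0.4). Btla, Cd160 and Cd244a had differences of -0.78, -0.78 and -0.53 and overlapped (exact permutation p = 0.5, 0.4 and 0.4).

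Against the 11 macrophage markers, whose mean log2 CPM was 6.32 in the controls and 7.09 with luteolin, the members stood otherwise. Ctla4, Lag3, Havcr2 and Cd96 lay above every control in each luteolin library, with differences of 1.28, 0.83, 1.31 and 2.39. Tigit and Lgals9 lay below every control, with -0.77 and -0.81. For these 6 members the exact permutation p was again 0.1, or 0.167 after adjustment over the 10 members. Vsir overlapped, with a difference of 0.35 (exact permutation p = 0.5). Changing the list shifts the difference of every member by the same amount, so a sign can depend on the list chosen. The difference was negative on both scales for Tigit and Lgals9 and positive on both for Cd96. For every other member the sign changed with the list.

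**Figure D4:**
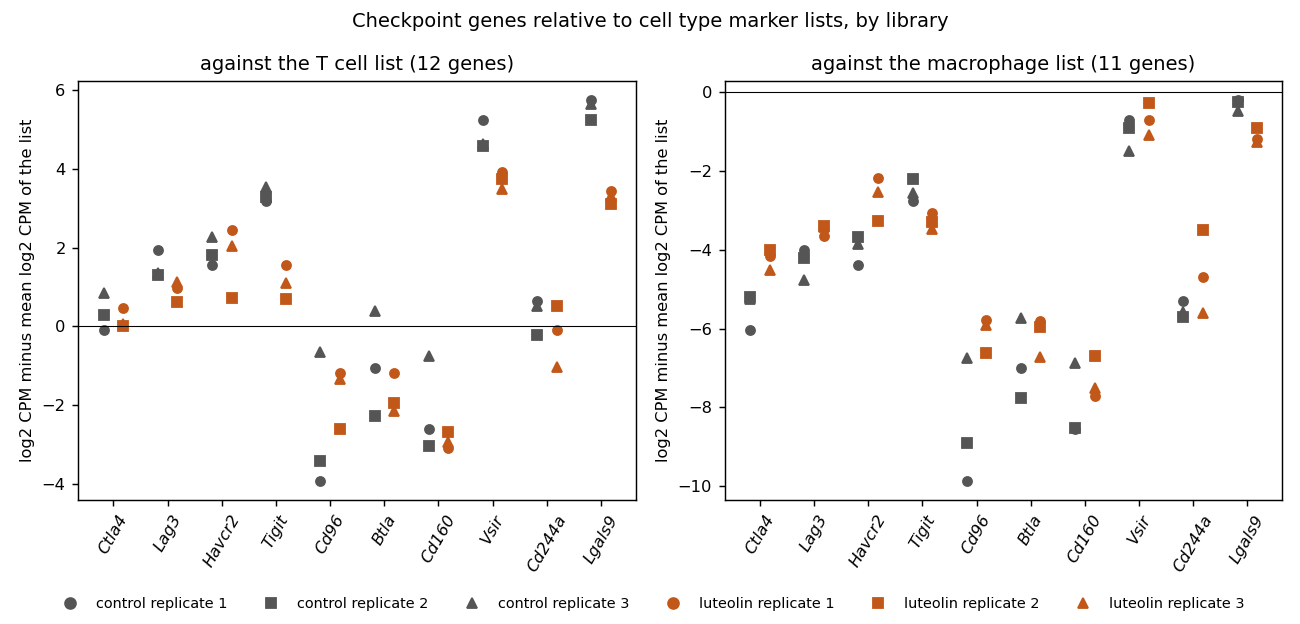
log2 CPM of each member minus the mean log2 CPM of the T cell list (left) or of the macrophage list (right), by library. On the left the luteolin points of Lag3, Tigit, Vsir and Lgals9 lie below all controls while Ctla4 and Havcr2 overlap, and on the right those of Ctla4, Lag3, Havcr2 and Cd96 lie above all controls and those of Tigit and Lgals9 below.

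The members differed widely in level. Divided by exon length (GENCODE M21), the order in the controls was Lgals9 at a mean of 30.1 CPM per kb, Tigit at 15.3, Vsir at 7.91, Lag3 at 1.91, Havcr2 at 1.89, Ctla4 at 0.77, Cd244a at 0.354, Btla at 0.246, Cd96 at 0.146 and Cd160 at 0.135. With luteolin, Lgals9 at 29.7 CPM per kb and Cd160 at 0.341 still held the ends. Vsir at 17.6 stood above Tigit at 15.3, Havcr2 at 8.07 above Lag3 at 5.79, and Cd96 at 0.904 above Btla at 0.57, while Ctla4 at 3.19 and Cd244a at 1.41 kept their places. The libraries of neighbours overlapped in the controls for Lag3 and Havcr2 and for each neighbouring pair from Cd244a down to Cd160. With luteolin they overlapped for Vsir and Tigit, for Havcr2 and Lag3, and for each neighbouring pair from Ctla4 down to Cd160, so these orders do not hold beyond the spread between libraries. The ligand Lgals9 was the most abundant member per kb in both groups, and its library ranges did not overlap those of the next member in either group.

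The patterns over the 6 libraries were compared by the root mean square difference of log2 CPM after each gene was centred on its own mean. Over 14962 other genes, those closest to Ctla4 were Irgm2, an interferon-induced GTPase (0.0926), and Fgl2, a fibrinogen-like protein (0.0987). Lag3 was closest to Runx3, a transcription factor of cytotoxic lymphocytes (0.135), and Dennd3 (0.136). Havcr2 was closest to Arg2, a mitochondrial arginase (0.16), and Lilrb4b (0.167), and Vsir to Efhd2 (0.0628) and Fth1, the ferritin heavy chain (0.0733). Cd96 had no close neighbour, with the chemokine receptor Cxcr6 at 0.296 and Ms4a7 at 0.386. For Tigit the closest were Cyp51 (0.0499) and Atg7 (0.0557), and for Lgals9 Smarcd2 (0.0344) and Slc29a1 (0.0437). Btla was closest to Fam13a (0.124) and Peg3 (0.241), Cd160 to Mageh1 (0.13) and Klri2, an NK cell lectin receptor (0.277), and Cd244a to Kif7 (0.147) and Tigar (0.16). These are descriptions over 6 libraries with no test. Among the members, the closest pairs were Tigit with Lgals9 (0.242), Lag3 with Vsir (0.334), Ctla4 with Havcr2 (0.423) and Btla with Cd160 (0.443). The farthest pair was Cd96 with Lgals9 (1.92).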

How the data were processed

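RNA-seq of H22 tumours, 3 control and 3 luteolin libraries, was analysed. The authors deposited 1 table of estimated counts by gene symbol, given as whole numbers without scaling. Per the labels' processing notes bcl2fastq 2.0, HISAT2, StringTie and DESeq2 were used, with the builds mm39 and rn6. The annotation and the strand setting are not given in the sources used here. Multiples of 4 made up 44.8% of values no higher than 40, so 1 count need not be 1 read pair. The labels name RNeasy and SMARTer kits, whereas the paper names Trizol and TruSeq. A total of 0 columns were left out.

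Counts were compared with edgeR 4.0.16 in R 4.3.3 (TMM, filterByExpr, quasi-likelihood test, no covariates, two-sided), and p values were adjusted over all 14963 genes tested. Log2 CPM has a prior count of 2. Exon lengths are from GENCODE M21 and promoters from RefSeq. The scripts were tested on simulated counts. Alternatives were DESeq2 1.42.0, voom of limma 3.58.1 with quality weights, RLE and upper-quartile scaling, no filter, at least 10 counts in every library, values divided by 4, the replicate number as a block, offsets for GC content and length, and each library left out. Luteolin replicate 3 alone against the controls was added after the data had been seen.

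The members and all gene lists were chosen with earlier results of these data known. Genes named are the members, their ligands and counterparts, the 4 with the smallest p in each further list, and the 2 closest in pattern to each member. Of each cell type list, the rule covers the 2 most abundant markers and those at 0. Hnf4a, Alb and Gpc3, and genes that overlap a member, were named after their values were seen. Trac and Loricrin, listed as markers, were not analysed here.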

Additional observations from a re-analysis of the deposited data

How the results depend on the processing

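The log2 fold changes of Ctla4, Lag3 and Havcr2 passed the study's threshold in all 16 settings run for each. None of the 6 members called with all libraries changed direction in any setting, and none of the 10 was called lower. The number of members past an adjusted p of 0.05 moved with the test. It was 1 with edgeR, 5 with DESeq2 and 7 with voom, where 228 of 14963, 1958 of 17478 and 3197 of 14963 tested genes passed. It was 3 with at least 10 counts in every library (where Cd96 was not tested), 3 with values divided by 4 and 4 with the GC content and length offset. In these settings 392 of 13571, 373 of 13580 and 881 of 14635 tested genes passed. With 1 library left out it was 0 to 1, where 0 to 312 genes passed. With 1 library left out, 4 to 7 members were higher at the study's threshold, against 7.52% to 13.6% of all tested genes. The median log2 fold change of the members ran from 1.09 without luteolin replicate 2 to 2.05 without control replicate 3. For luteolin replicate 3 alone the median log2 fold change of the members was 0.87. The causes were not tested. Vsir fell under the fold limit with voom (0.93), and Btla and Cd160 passed the threshold with voom (log2 fold changes 2.24 and 1.57).

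The replicate numbers are shared between the groups. Deviations of same-numbered libraries from their group means had correlations of -0.20, -0.09 and 0.06, and those of differently numbered libraries ran from -0.12 to 0.20. With 3 libraries per group these values cannot decide whether same-numbered libraries shared a batch. With the replicate block 6 members were higher at the study's threshold, against 8.64% of all tested genes. The adjusted p with edgeR was passed by 0 members and by 35 of 14963 genes. An unadjusted p under 0.05 was found for 6 members and for 2297 genes.

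Over the members, the median difference relative to the T cell list was -0.70. It was 0.75 relative to the macrophage list and 0.33 relative to Ptprc, and it ran from -1.01 to -0.27 with 1 library left out. The orders by length were unchanged with the longest transcript in place of the exon length.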
